A study of Mus musculus with 10 samples.

Results

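Vwde, Clca1, Sowaha, Ube2ql1 and Smpd3 are 5 protein-coding genes with little history in the limb, out of 55401 genes in a count table. They were taken by symbol and had been chosen by their counts in these libraries, which were at or near 0 in double-knockout ectoderm. The table measures RNA by sequencing in the ectoderm of mouse (Mus musculus) forelimb buds at E9.75. It has 3 libraries labelled as a double knockout (DKO) of Sp8 and Sp6, genes of zinc finger transcription factors, and 3 of wild-type (WT) littermates. The labels give no allele, promoter or strain, and both groups share the dissection: the ectoderm of about 2 forelimb buds was peeled in trypsin for each replicate. The numbers in the library names are those of the table's columns and match no replicate number of the labels. The labels do not tie samples to embryos, so each p-value covers the spread between samples, which may be technical.

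The apical ectodermal ridge is the thickened rim of limb ectoderm that secretes FGF signals and keeps the bud growing, and Sp8 and Sp6 are needed for it to form. The 5 genes have no common pathway. The product of Vwde is secreted, carries EGF and von Willebrand factor D domains and is known in the axolotl from the regenerating limb. Clca1 encodes a secreted regulator of calcium-activated chloride channels best known from the mucus of gut goblet cells. Sowaha encodes an ankyrin-repeat protein whose role is not well characterised, and Ube2ql1 an enzyme of the ubiquitin-conjugating (E2) class. Smpd3 encodes neutral sphingomyelinase 2, which splits sphingomyelin into ceramide and phosphocholine and whose loss in mice gives a deformed, fragile skeleton.

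The libraries held between 64432348 and 87040786 counts. Sp8 was at 5.86, 2.38 and 2.80 CPM (counts scaled to library size, with TMM factors) in DKO 17, DKO 40 and DKO 41, against 34.1, 43.2 and 31.3 CPM in WT 32, WT 53 and WT 56. Sp6 was at 133, 13.9 and 76.9 CPM in the same DKO libraries, against 228, 312 and 320 CPM in the WT libraries. In the test described further on, Sp8 was called lower (edgeR adjusted p = 0.000806) and Sp6 was not (edgeR adjusted p = 0.207). The part of either gene that the alleles remove is not given in the labels, so the RNA left does not show whether Sp6 or Sp8 function was lost. DKO 41 held the most of the 9 red blood cell genes, with a summed level of 917 CPM, against 27.0 and 127 CPM in the other DKO libraries and 0 to 301 CPM in WT. The 10 limb mesenchyme genes summed to between 332 and 484 CPM in DKO, against 242 to 362 CPM in WT. Of these, Prrx1 was at 3.50, 23.3 and 12.8 CPM in DKO 17, DKO 40 and DKO 41, against 29.0, 1.61 and 0.412 CPM in WT 32, WT 53 and WT 56. The 7 endothelium genes summed to at most 1.69 CPM in DKO and 0.742 CPM in WT, with Cdh5 at 0 counts throughout. The 5 neural crest genes summed to between 39.0 and 47.4 CPM in DKO and between 37.4 and 40.6 CPM in WT, with Foxd3 at 0 counts. The 19 ridge genes summed to between 706 and 1157 CPM in DKO and between 3163 and 3869 CPM in WT. Within that sum Fgf8 alone averaged 1258 CPM in WT. The list and its sum include the targeted genes Sp8 and Sp6, and Sp6 averaged 287 CPM in WT. In the same test 12 of the 19, Sp8 among them, were called lower, beside 2.81% of all genes tested. The 14 ectoderm genes summed to between 2597 and 3510 CPM in DKO and between 4043 and 4411 CPM in WT. Of the 14, 3 were called lower (Epcam, Cdh1 and Perp) and 1 higher, beside 2.81% and 1.7% of all genes tested. The higher one was Krt8, at 478 ± 26.3 CPM in DKO and 345 ± 18.6 CPM in WT. A log2 fold change below 0 was found for 13 of the 14, and for 8967 of all 19126 genes tested. Trp63 is in both lists and was not called. The 3 called lower are not in the ridge list, so the fall was not confined to that list.

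The difference between DKO and WT chose the 5 genes, so their values are given as a description, with no test. In bulk RNA, fewer cells of a kind and less RNA per cell cannot be told apart. All 5 passed the filter on low counts, which their WT libraries alone would have met. In each of the 5, every DKO library was below every WT library, as in 11.3% of the 19126 genes tested. Vwde and Clca1 had 0 counts in all DKO libraries. Sowaha and Ube2ql1 had counts in some DKO libraries, and Smpd3 in each of them, so "silenced" holds by count for the first pair only. Of the 10923 tested genes with a WT mean of 5 CPM or more, 4 (0.0366%) had 0 counts in DKO and 13 (0.119%) were at or under 1% of the WT mean. Ordered by fold, Vwde was 2nd, Clca1 3rd, Sowaha 7th, Smpd3 12th and Ube2ql1 14th of the 10923. Genes at 0 counts in DKO, Vwde and Clca1 among them, enter this order by a bound. Their place depends on the WT level and on a floor of 3 counts. Ube2ql1, 75.2-fold lower, was the first gene past the 1% mark, next to Rspo2, a WNT agonist of the ridge, which was 109-fold lower.

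**Figure D1:**
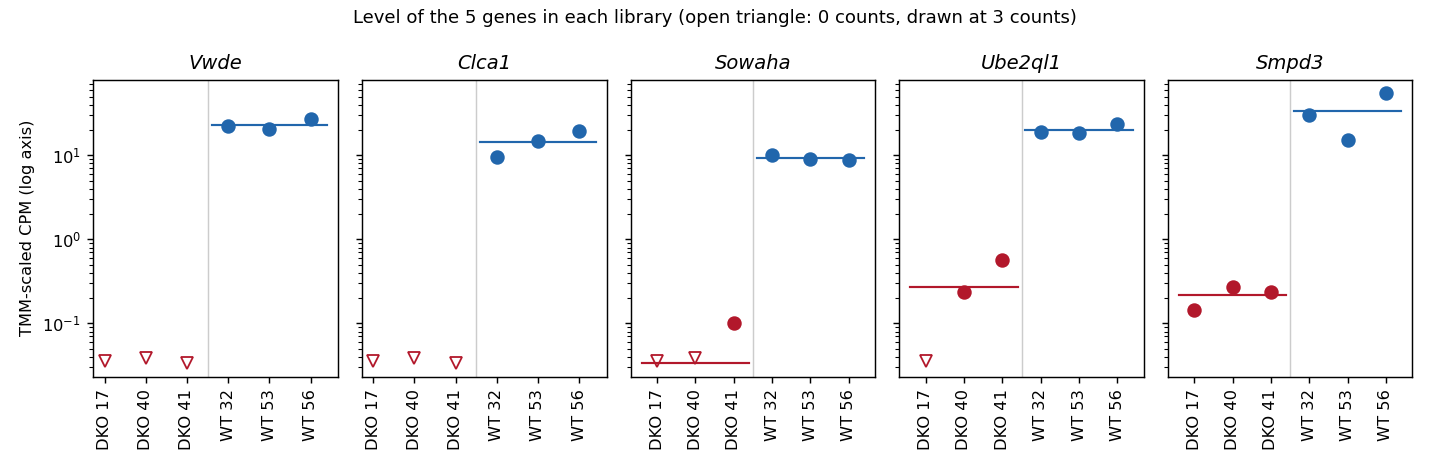
TMM-scaled CPM (log axis) of each gene in the 3 DKO libraries (red) and the 3 WT libraries (blue), with lines at group means. Open triangles are libraries with 0 counts, drawn at the level of 3 counts; Vwde and Clca1 have such triangles in all DKO libraries, and Smpd3 has 12, 21 and 21 counts there.

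Vwde (ENSMUSG00000079679.3) lies on the minus strand of GRCm38 chromosome 6 from 13156299 to 13224965, with 30 exon blocks that add up to 7287 bases. It had 0, 0 and 0 counts in DKO 17, DKO 40 and DKO 41, against 1906, 1295 and 2364 counts in WT 32, WT 53 and WT 56. The WT counts correspond to 22.1, 20.4 and 27.0 CPM. The WT mean was 23.2 ± 3.44 CPM (SD, n = 3), and with 3 counts over the DKO group as the floor Vwde was at least 1926-fold lower in DKO. With 1 DKO library fewer the bound itself falls, to 1282-fold without DKO 17 and 1244-fold without DKO 41. The exact Poisson 95% interval of a count of 0 reaches 0.191% of the WT mean in DKO 17, 0.208% in DKO 40 and 0.178% in DKO 41. These limits cover counting error only, as the library kit carries no molecular identifiers.

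Clca1 (ENSMUSG00000028255.6, chromosome 3, 145003817 to 145032776, minus strand) was likewise at 0 counts in every DKO library. Its WT libraries had 828, 938 and 1687 counts in WT 32, WT 53 and WT 56, or 9.58, 14.8 and 19.3 CPM. The WT mean was 14.6 ± 4.86 CPM (SD, n = 3), and Clca1 was at least 1210-fold lower in DKO, or at least 805-fold without DKO 17 and 783-fold without DKO 41. WT 56, which held the most Clca1, had 0 counts of the globin genes Hbb-y and Hba-a1. Its limb mesenchyme genes summed to 258 CPM, against 362 CPM in WT 32 and 242 CPM in WT 53. The part of other tissues in the Clca1 counts was not tested. The 6 goblet cell genes summed to between 2.02 and 5.74 CPM in DKO and between 3.40 and 5.56 CPM in WT. Their mucus genes Tff3 and Zg16 were at 0 counts in all libraries, and the other 4 had some counts.

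Sowaha (ENSMUSG00000044352.6, chromosome 11, 53476573 to 53480274, minus strand) is a gene of 1 exon, 3702 bases long. DKO 41 alone of the DKO libraries had reads, with 9 counts or 0.101 CPM, against 874, 566 and 774 counts in WT 32, WT 53 and WT 56. The WT levels of 10.1, 8.93 and 8.86 CPM were the closest to each other of the 5 genes, with a coefficient of variation of 7.59%. DKO averaged 0.0336 ± 0.0582 CPM and WT 9.30 ± 0.706 CPM (SD, n = 3 each), 277-fold lower in DKO. The DKO library left out decides this fold: it was 184-fold without DKO 17, 185-fold without DKO 40, and at least 498-fold without DKO 41. The first 109 bases of Sowaha overlap the opposite-strand gene Gm9945, which had 0 counts in DKO and 23, 8 and 8 counts in WT. The library chemistry does not mark strand, so reads of that stretch cannot be told apart.

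Ube2ql1 (ENSMUSG00000052981.6, chromosome 13, 69702832 to 69739889, minus strand) has 2 exons of 2674 bases in all, of which 912 code. It had 0, 18 and 51 counts in DKO 17, DKO 40 and DKO 41, against 1617, 1167 and 2055 counts in WT 32, WT 53 and WT 56. In CPM these are 0, 0.235 and 0.571 in DKO, and 18.7, 18.4 and 23.5 in WT. The DKO mean was 0.269 ± 0.287 CPM and the WT mean 20.2 ± 2.86 CPM (SD, n = 3 each), 75.2-fold lower. The fold moved with the libraries, to 174-fold without DKO 41 and 50.1-fold without DKO 17. DKO 41 kept 2.83% of the WT mean, with an exact Poisson 95% interval of 2.10% to 3.72%. DKO 40 kept 1.16%, with an interval of 0.689% to 1.84%. Both intervals cover counting error only and do not overlap, and that of DKO 17, at 0 counts, ends below both at 0.219%. The source of this difference between the DKO libraries was not tested.

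Smpd3 (ENSMUSG00000031906.9, chromosome 8, 106252548 to 106337988, minus strand) was the one gene of the 5 with reads in all DKO libraries, 12, 21 and 21 counts in DKO 17, DKO 40 and DKO 41. The WT libraries held 2627, 956 and 4793 counts in WT 32, WT 53 and WT 56. DKO averaged 0.218 ± 0.0669 CPM and WT 33.4 ± 20.0 CPM (SD, n = 3 each), 154-fold lower. WT 56 was at 54.8 CPM, 3.63 times the 15.1 CPM of WT 53, with WT 32 between them at 30.4 CPM. At its downstream end, 247 exon bases of Smpd3 overlap the opposite-strand gene Prmt7, an arginine methyltransferase gene at 207, 198 and 176 CPM in DKO and 191, 214 and 191 CPM in WT. How many of the 54 DKO counts of Smpd3 came from Prmt7 was not tested.

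The 250 bases before the start of the transcript are shown for Vwde and Ube2ql1, the pair of the 5 genes in the RefSeq promoter table used (GRCm38.p6), since 1 gene was at 0 counts in DKO and the other kept the most. Capitals mark matches to the GC box GGGCGG or the CACCC-like box CCNCNCCC, the letters that SP and KLF factors are known to bind, on either strand. The windows are chr6:13224966-13225215 and chr13:69739898-69740147, both on the minus strand and read 5′ to 3′.
Vwde: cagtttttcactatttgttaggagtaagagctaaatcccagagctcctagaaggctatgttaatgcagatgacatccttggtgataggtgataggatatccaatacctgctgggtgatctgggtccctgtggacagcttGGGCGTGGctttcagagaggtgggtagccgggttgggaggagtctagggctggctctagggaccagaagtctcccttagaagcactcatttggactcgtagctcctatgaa
Ube2ql1: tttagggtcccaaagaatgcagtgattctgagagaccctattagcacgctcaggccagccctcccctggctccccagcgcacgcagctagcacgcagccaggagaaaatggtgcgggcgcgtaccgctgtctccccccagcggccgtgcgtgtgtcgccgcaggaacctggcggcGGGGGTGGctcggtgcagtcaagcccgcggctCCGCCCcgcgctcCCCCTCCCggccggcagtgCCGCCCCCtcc
Over the whole 300-base window, which goes on 50 bases past the start, Vwde had 0 GC boxes and 1 CACCC-like box, from -111 to -104. Ube2ql1 had 2 GC boxes and 3 CACCC-like boxes, and a GC box and a CACCC-like box overlap from -11. Of all 32851 windows of this length, 35.7% hold a GC box and 49.5% a CACCC-like box. The homeodomain letters TAATTA (in 5.29% of windows) and the TATA letters TATAAA (13.6%) were in neither window. The base composition differed: 51.0% G or C with 3 CpG in Vwde, and 70.7% with 30 CpG in Ube2ql1, against a median of 52.7% over all windows. The observed-to-expected CpG ratio was 0.162 in Vwde and 0.81 in Ube2ql1, against a median of 0.384.

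**Figure D2:**
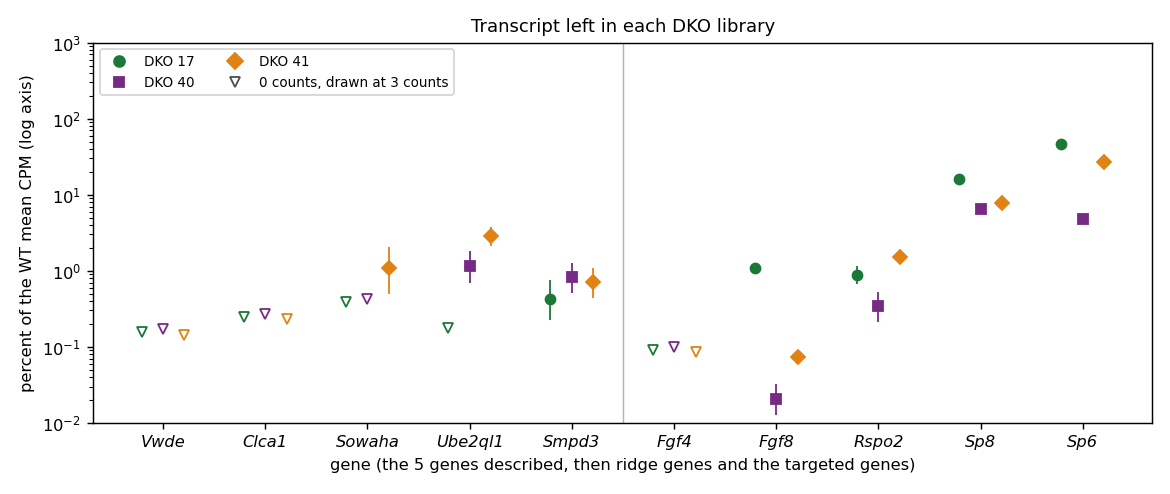
Percent of the WT mean CPM (log axis) found in DKO 17 (circle), DKO 40 (square) and DKO 41 (diamond) for the 5 genes, then ridge genes and the targeted genes. Bars are exact Poisson 95% intervals of the counts and open triangles are 0 counts drawn at 3 counts; DKO 17 is highest for Fgf8, Sp8 and Sp6 but at 0 counts for Ube2ql1, where DKO 41 is highest at 2.83%.

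The DKO libraries ranked differently for Fgf8 than for Sowaha and Ube2ql1, while Vwde and Clca1 were at 0 counts in all 3 and give no order. DKO 17 kept the most Fgf8, the main FGF signal of the ridge, at 1.08% of the WT mean, against 0.0208% in DKO 40 and 0.0739% in DKO 41. It also kept the most Sp6 (46.4%) and Sp8 (16.2%). Of the 5 genes, DKO 17 held none but Smpd3, at 0.431% of the WT mean. DKO 41 held the most Ube2ql1 and the only Sowaha counts of the group, at 1.08% of the WT mean. It also held the most Rspo2 of the DKO libraries (1.53%). Of the ridge list, only Rspo2 and Trp63 were highest in DKO 41, while Fgf9, Fgf17, Sp9, Cd44, Dlx5 and Dlx6 were lowest there. Of the ectoderm list, all genes but Epcam and Tfap2c were highest in DKO 41. Among them, the epidermal genes Krt5 and Grhl3 were at 64.9 and 66.3 CPM, against at most 12.7 and 16.2 CPM in the other DKO libraries. DKO 41 stood apart in globin as well, and the part of that in these counts was not tested.

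Levels between genes were compared per kilobase of exon. In WT, Ube2ql1 stood at 7.56 ± 1.07 CPM per kilobase, Smpd3 at 6.39 ± 3.83, Clca1 at 3.86 ± 1.29, Vwde at 3.18 ± 0.472 and Sowaha at 2.51 ± 0.191 (SD, n = 3). The WT ranges of Ube2ql1, Smpd3, Clca1 and Vwde overlapped each with the next, and those of Vwde and Sowaha did not. Among 14205 tested protein-coding genes these levels lie at percentiles 60.1, 57.1, 47.5, 43.7 and 39.6 in the same order. In DKO, Ube2ql1 reached 0.214 CPM per kilobase in DKO 41, and Smpd3 was at most 0.0524 in DKO 40.

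**Figure D3:**
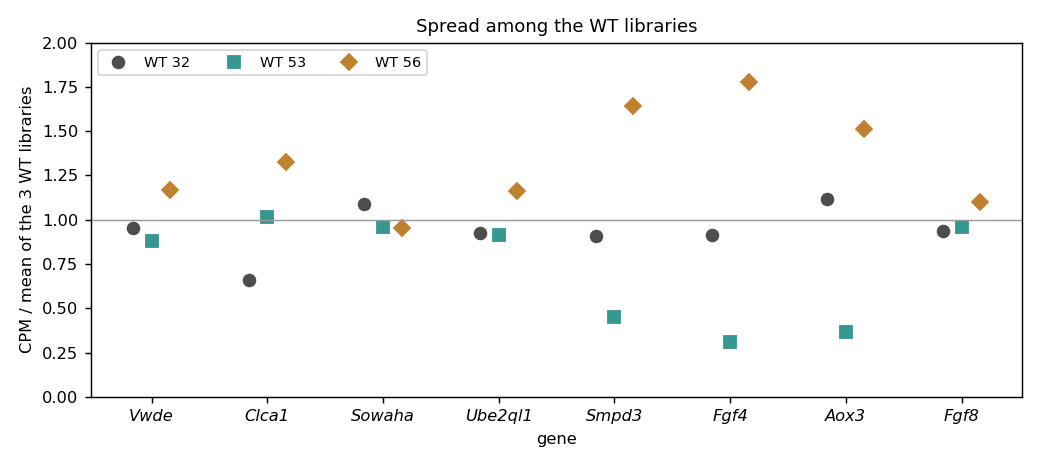
CPM in WT 32 (circle), WT 53 (square) and WT 56 (diamond), each divided by the mean of the 3 WT libraries, for the 5 genes and for Fgf4, Aox3 and Fgf8. Smpd3, Fgf4 and Aox3 have WT 53 at 0.451, 0.307 and 0.366 of their mean and WT 56 above 1.5, while Sowaha stays between 0.952 and 1.09.

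Among the WT libraries the 5 genes fell into more than one pattern. Vwde, Ube2ql1 and Sowaha each varied by at most 1.32 times between their lowest and highest WT library. Counted against Fgf8 in the same library, Vwde was at 1.87%, 1.69% and 1.95% of the Fgf8 counts in WT 32, WT 53 and WT 56. Ube2ql1 was at 1.59%, 1.52% and 1.70%. Clca1 varied 2.01 times and was lowest in WT 32, at 0.812% of the Fgf8 counts, against 1.23% and 1.39% in WT 53 and WT 56. Smpd3 spread furthest, from 1.25% in WT 53 to 3.96% in WT 56. WT 53 had the fewest counts of all libraries, and the mesenchyme genes summed to more in WT 32 than in WT 53 and WT 56. The part of either in these levels was not tested.

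The genes most like each of the 5 over the 6 libraries were sought among 10919 genes with a WT mean of 5 CPM or more, by Pearson correlation of log2 CPM. The groups differ by construction in the 5 genes, so any gene that separates DKO from WT scores high, and between 167 and 259 genes exceeded 0.95 for each. Fgf4, a ridge FGF, came first for Smpd3 (r = 0.997), then Bend6 and the aldehyde oxidase gene Aox3. Fgf4 was at 0 counts in DKO and at 36.3, 12.2 and 70.5 CPM in WT 32, WT 53 and WT 56, the WT order of Smpd3. The poly(A) polymerase gene Tent5a came first for Vwde (r = 0.998), followed by Fkbp9 and Tmed7. For Clca1 the first was the LIM homeobox gene Isl2 (r = 0.998), with Tent5a and Fkbp9 next. Isl2 was at 2.84, 3.38 and 3.37 CPM in DKO and at 32.4, 42.9 and 50.8 CPM in WT, with the WT libraries in the order of Clca1. Sowaha was followed by Snx25, the tetraspanin gene Cd9 and Slc35d3. Ube2ql1 stood with D430041D05Rik (r = 0.9995), Fxyd3 and the hemidesmosome integrin gene Itgb4. Each of these 3 genes, like Ube2ql1, was lowest in DKO 17 and highest in DKO 41 within the DKO group. The correlation with Fgf8 was 0.947 for Vwde, 0.945 for Clca1, 0.914 for Sowaha, 0.912 for Smpd3 and 0.782 for Ube2ql1. These libraries hold peeled ectoderm whole, so none of these values places a gene in the ridge.

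Relatives of the 5 genes were not used to choose them and were tested in the fit across all genes, where 863 of 19126 (4.51%) were called, 538 lower (2.81%) and 325 higher (1.7%) in DKO. Over 7 lists of paralogs and pathway genes, 5 of 81 tested genes were called lower and 0 higher (edgeR; 19 at an unadjusted p under 0.05, and 8 called by DESeq2). Over all genes, 3448 of 19126 (18.0%) were at an unadjusted p under 0.05, and DESeq2 called 1737 of 21101 (8.23%). The median log2 fold change of the 81 genes was 0.01, beside 0.03 over all genes tested.

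**Figure D4:**
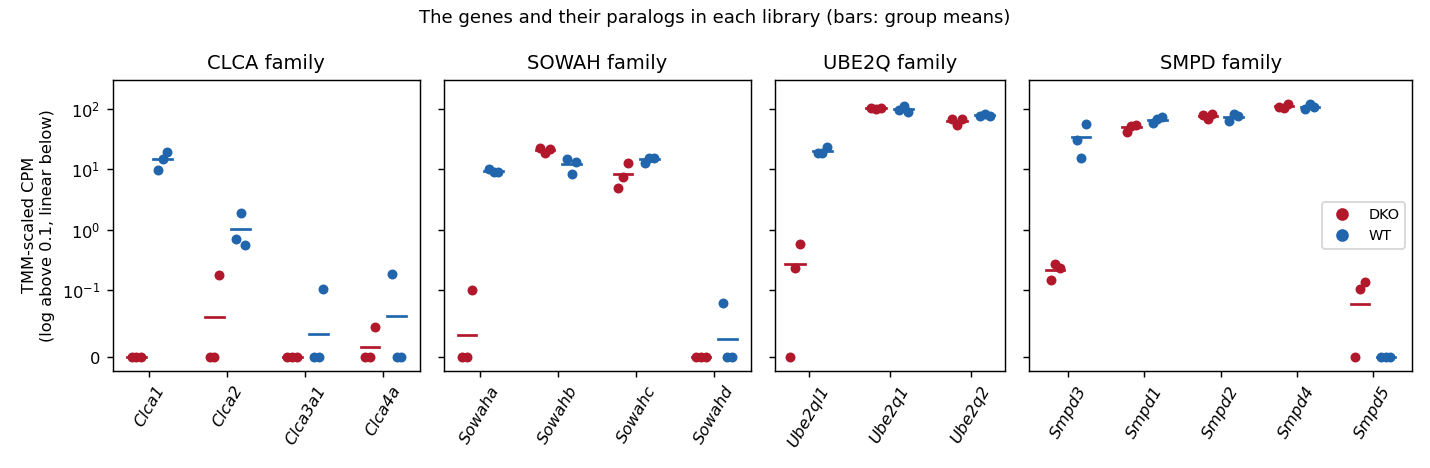
TMM-scaled CPM in each DKO library (red) and WT library (blue) for the CLCA, SOWAH, UBE2Q and SMPD families, with bars at group means; the axis is logarithmic above 0.1 CPM and linear below. Clca1 averages 14.6 CPM in WT and Clca2 1.04 CPM, the groups overlap for Ube2q1, Smpd2 and Smpd4, and for Ube2q2 and Smpd1 each DKO library lies below each WT library.

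The CLCA genes lie side by side on chromosome 3 and are close in sequence, so counts could be shared between them. Of the 7 relatives of Clca1, 4 had 0 counts in all libraries and Clca2 was the only one to pass the filter. Clca2 had 0, 0 and 0.179 CPM in DKO 17, DKO 40 and DKO 41, against 0.694, 1.86 and 0.561 CPM in WT 32, WT 53 and WT 56. It did not pass the threshold (log2 fold change -3.88, SE 1.04, edgeR adjusted p = 0.0567). The value rests on single libraries: it was -3.26 without WT 53, and without DKO 41, the DKO library with all the counts, the DKO group was at 0 and the fitted -9.26 depends on the prior count. Clca3a1 had 9 counts in WT 56 alone, and Clca4a had 4 counts in DKO 41 and 16 in WT 32. Of 6 tested genes for calcium-activated chloride channels and their relatives, 1 was lower, beside 2.81% of all genes tested. In this list 1 was at an unadjusted p under 0.05 (edgeR) and 1 was called by DESeq2. Best3, of the bestrophin family, had 0 counts in DKO and 0.412 ± 0.189 CPM in WT, at least 34.2-fold lower (edgeR adjusted p = 0.0491). That bound was 22.8-fold and 22.0-fold without DKO 17 and DKO 41, and the call was lost without any 1 library (edgeR adjusted p between 0.0948 and 0.164). With 0 counts in DKO, Best3 passed the filter on its WT counts alone, which were 54, 22 and 23. The main epithelial channel gene Ano1 was not called (edgeR adjusted p = 0.918), at 1.48 ± 0.378 CPM in DKO and 1.18 ± 1.04 CPM in WT. Its WT counts were 141, 0 and 168 in WT 32, WT 53 and WT 56, a spread too wide to show whether it changed.

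Among the SOWAH genes, Sowahb and Sowahc were tested and 0 were called (edgeR; both at an unadjusted p under 0.05, and Sowahb called by DESeq2). Sowahb was at 20.9 ± 2.07 CPM in DKO and 12.1 ± 3.31 CPM in WT (log2 fold change 0.77, SE 0.224, edgeR adjusted p = 0.0959). Sowahc was at 8.34 ± 3.99 CPM in DKO and 14.5 ± 1.54 CPM in WT (log2 fold change -0.78, SE 0.314, edgeR adjusted p = 0.23). Without DKO 41, Sowahc passed (log2 fold change -1.25, edgeR adjusted p = 0.0382). Sowahd had 7 counts in WT 32 alone.

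The closest relatives of Ube2ql1 did not pass the test. Ube2q1 was at 101 ± 3.34 CPM in DKO and 97.7 ± 12.9 CPM in WT, and Ube2q2 at 62.7 ± 7.59 CPM in DKO and 76.9 ± 3.10 CPM in WT (SD, n = 3 each). The groups overlapped for Ube2q1 and not for Ube2q2. Their edgeR adjusted p-values were 0.875 and 0.277 (0 at an unadjusted p under 0.05, and 0 called by DESeq2). Of 33 E2 enzyme genes, 1 was lower and 0 higher, beside 2.81% and 1.7% of all genes tested. Their median log2 fold change was 0.04, with 5 at an unadjusted p under 0.05 (edgeR) and 2 called by DESeq2. These shares were 18.0% and 8.23% over all genes. Ube2e3 fell to 249 ± 23.0 CPM in DKO, against 361 ± 25.8 CPM in WT (log2 fold change -0.54, SE 0.112, edgeR adjusted p = 0.0303). Its call was kept without DKO 41 and lost without any other 1 library (edgeR adjusted p up to 0.146).

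Of the enzymes of sphingomyelin and ceramide, the list around Smpd3, 3 of 32 tested genes were called lower and 0 higher. Their median log2 fold change was -0.09, with 9 at an unadjusted p under 0.05 (edgeR) and 4 called by DESeq2. Over all genes, 2.81% were called lower, 1.7% higher, 18.0% were at an unadjusted p under 0.05 and DESeq2 called 8.23%. Sptlc3, a subunit of the enzyme that starts sphingolipid synthesis, fell to 9.04, 3.32 and 6.13 CPM in the DKO libraries, against 17.9, 19.6 and 21.2 CPM in the WT libraries. That is 3.17-fold lower (log2 fold change -1.65, SE 0.296, edgeR adjusted p = 0.0169). The ceramide kinase gene Cerk was 1.85-fold lower, at 25.5 ± 5.39 CPM in DKO and 47.4 ± 8.47 CPM in WT (edgeR adjusted p = 0.0392). Sgpp1, a phosphatase of sphingosine-1-phosphate, was 2.00-fold lower, at 5.84 ± 0.892 CPM in DKO and 11.7 ± 1.32 CPM in WT (edgeR adjusted p = 0.0381). These calls rest on the full set of libraries. Sptlc3 lost its call without any 1 WT library (edgeR adjusted p up to 0.0869), Cerk without any 1 library but DKO 17 and WT 53 (up to 0.182), and Sgpp1 without any 1 of the 6 (up to 0.152). The other sphingomyelinase genes Smpd1, Smpd2 and Smpd4 were not called; Smpd1 was at 48.9 ± 6.92 CPM in DKO and 65.4 ± 6.77 CPM in WT (edgeR adjusted p = 0.176). Smpd4 was at 110 ± 8.70 CPM in DKO and 108 ± 8.40 CPM in WT (edgeR adjusted p = 0.935).

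Of 15 other genes whose proteins hold a von Willebrand factor D domain, 7 were tested and 0 called (edgeR; 1 at an unadjusted p under 0.05, and 0 called by DESeq2). Of the 5 mucin genes in this list, Muc5ac and Muc19 had 0 counts in all libraries. Muc2, the one that passed the filter, had 0, 35 and 19 counts in DKO 17, DKO 40 and DKO 41, against 21, 0 and 0 counts in WT 32, WT 53 and WT 56. Muc6 and Muc5b had at most 8 counts in any library.

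**Figure D5:**
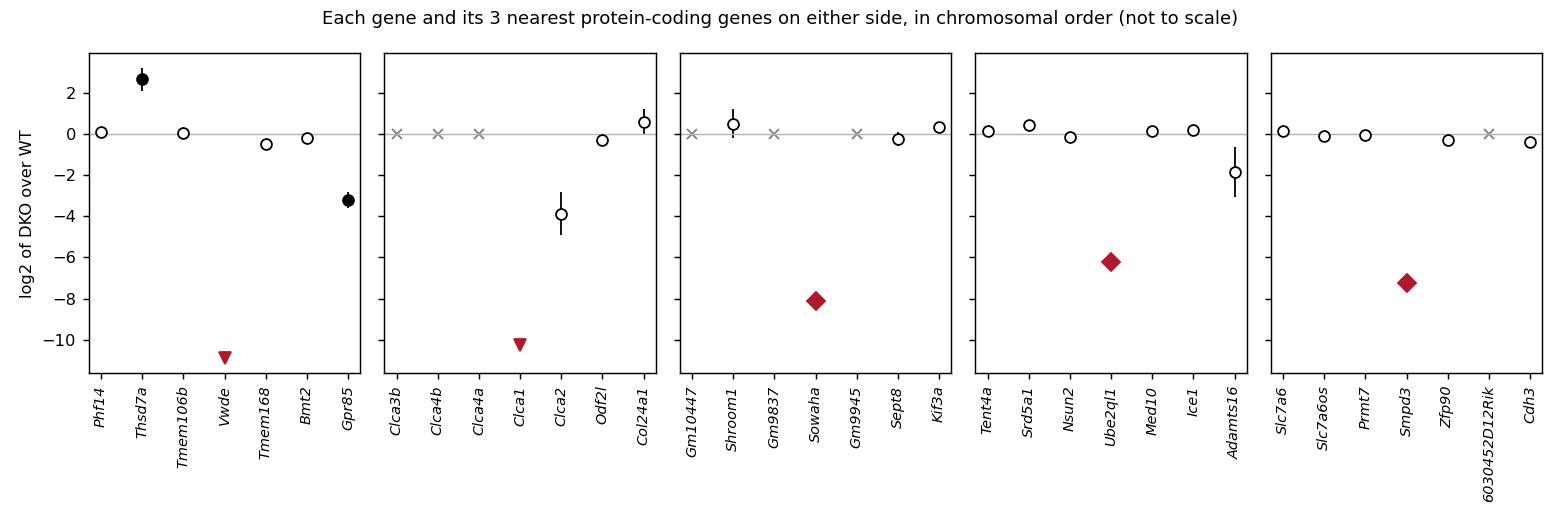
Log2 of DKO over WT for each of the 5 genes (red; triangles are bounds from 0 counts) and the 3 nearest protein-coding genes on each side, in chromosomal order and not to scale. Circles are edgeR log2 fold changes with SE, filled where called, and crosses are genes that did not pass the filter; Gpr85 (-3.21) and Thsd7a (2.66), both near Vwde, are the filled ones.

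Position, like family, was not used in the choice. Of the 30 protein-coding genes nearest to the 5, 3 on each side, 23 were tested, and 1 was called lower and 1 higher (edgeR; 4 at an unadjusted p under 0.05, and 3 called by DESeq2). The shares over all genes were 2.81% lower, 1.7% higher, 18.0% at an unadjusted p under 0.05 and 8.23% by DESeq2. The median log2 fold change of the 23 tested neighbours was -0.04, beside 0.03 over all genes tested. Both called genes lie near Vwde. Gpr85, which encodes an orphan G protein-coupled receptor, lies 609.5 kb from Vwde. It was at 0.852, 0.588 and 1.93 CPM in DKO 17, DKO 40 and DKO 41, against 11.2, 8.45 and 12.1 CPM in WT 32, WT 53 and WT 56. It was 9.43-fold lower (log2 fold change -3.21, SE 0.375, edgeR adjusted p = 0.00268). Gpr85 stayed called without each library in turn (edgeR adjusted p at most 0.0197), and its log2 fold change was -3.89 without DKO 41.

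Thsd7a, which encodes a thrombospondin-repeat membrane protein, lies 406.9 kb from Vwde on the other side. It rose 6.11-fold, to 2.55 ± 1.06 CPM in DKO, against 0.417 ± 0.161 CPM in WT (log2 fold change 2.66, SE 0.552, edgeR adjusted p = 0.0295). Its call was kept without DKO 17 and lost without any other 1 library (edgeR adjusted p up to 0.169). Tmem106b and Tmem168, the genes next to Vwde at 67.0 and 355.7 kb, were not called by edgeR. Tmem106b was at 14.0 ± 5.83 CPM in DKO and 13.9 ± 2.73 CPM in WT (edgeR adjusted p = 0.968). Tmem168 was at 23.1 ± 3.67 CPM in DKO and 33.0 ± 1.21 CPM in WT (edgeR adjusted p = 0.124), and DESeq2 called it lower (DESeq2 adjusted p = 0.0333).

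Around the other 4 genes, 0 of 17 tested neighbours were called (edgeR; 1 at an unadjusted p under 0.05, and 0 called by DESeq2). Nsun2 and Med10 flank Ube2ql1 at 67.1 and 62.5 kb. Nsun2, an RNA methyltransferase gene, was at 307 ± 74.0 CPM in DKO and 344 ± 17.2 CPM in WT (edgeR adjusted p = 0.673). Med10, a Mediator subunit gene, was at 110 ± 13.4 CPM in DKO and 101 ± 2.17 CPM in WT (edgeR adjusted p = 0.692). Smpd3 lies between Prmt7, which it overlaps (edgeR adjusted p = 0.903), and Zfp90 at 77.3 kb, at 26.4 ± 4.07 CPM in DKO and 32.7 ± 1.39 CPM in WT (edgeR adjusted p = 0.362). Next to Sowaha, the predicted genes Gm9837 and Gm9945 did not pass the filter. Clca1 is flanked by Clca4a and Clca2, given above with their family.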

How the data were processed

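Per the labels' protocols, libraries were made with SMART-Seq v4 and Nextera XT from ectoderm peeled after 20 min in 0.25% trypsin. The deposited values are raw counts per gene, whole numbers summing to a different total in each library, matched here to groups by column name. The submitters' processing notes name the builds GRCm38 and mm10 and the tools HISAT2, StringTie, Cufflinks, DESeq2, fastp and FastQC. Neither their versions nor the counting step is given in the sources used here. The E10.5 libraries (2 lacking Sp6 and 2 WT) were not analysed here.

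The 5 genes, the gene lists and the tests were chosen with earlier results of these data known. Positions came from GENCODE M21 (GRCm38), matched for 55141 of 55401 identifiers (99.53%). Counts were tested with edgeR 4.0.16 in R 4.3.3 (filterByExpr, TMM factors, glmQLFit with robust=TRUE and legacy=FALSE), with Benjamini-Hochberg adjustment over 19126 genes and calls at an adjusted p under 0.05. DESeq2 1.42.0 was an alternative. Log2 fold changes are DKO over WT, and SE is their size over the square root of F. The script was tested on simulated data. Folds of the 5 genes are ratios of group mean CPM, with a group at 0 set at 3 counts over the group. Correlations used log2 CPM with a prior count of 2. Each pair of libraries differed by more than sampling noise. Text names the 5 genes, Sp8, Sp6 and Fgf8, tested paralogs, called list genes, called or adjoining neighbours and the 3 most correlated genes of each; any other gene was named after its values were seen.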

Additional observations from a re-analysis of the deposited data

How the results depend on the processing

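Each of the 5 genes stayed lower in DKO under every scaling and with each library left out. With 1 library left out, the log2 of the group means ran from -10.99 to -10.28 for Vwde, -10.49 to -9.61 for Clca1, -8.96 to -7.53 for Sowaha, -7.45 to -5.65 for Ube2ql1 and -7.61 to -6.71 for Smpd3. Without both WT 32 and DKO 41, a choice made after seeing the data, it was -10.34 for Vwde, -8.92 for Sowaha and -7.52 for Ube2ql1. The Vwde and Clca1 values are bounds from 0 counts, which fall with fewer DKO libraries by construction. Without DKO 41, which held its only DKO counts, Sowaha also became a bound. Its -8.96 and -8.92 are therefore set by the floor and are not measured ratios.

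Calls were less stable. In place of 863 genes (325 higher, 538 lower), 412 were called without a filter (116 and 296), 1737 by DESeq2 (753 and 984), 546 with legacy=TRUE (200 and 346) and 377 without WT 32 and DKO 41 (95 and 282). With 1 library left out the counts ran from 247 to 918, with 53 to 332 higher and 194 to 592 lower. Of the family and pathway genes, 1 was called without a filter, 8 by DESeq2, 2 with legacy=TRUE, 0 without WT 32 and DKO 41, and 0 to 4 with 1 library left out. Neighbours called were 1 without a filter, 1 without WT 32 and DKO 41, and 1 to 2 with 1 library left out. The cause of these changes was not tested. Signs turned for genes that were not called: with 1 library left out, log2 fold changes ran from -0.0897 to 0.0197 for Prmt7, -0.37 to 0.23 for Tmem106b and -0.0322 to 0.16 for Ube2q1. Without WT 32 and DKO 41 it was -0.53 for Tmem106b and -0.0218 for Ube2q1. No paired analysis was possible because the labels do not state which DKO and WT samples share a litter.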
